A study of Mus musculus with 48 samples.

Results

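The Hox genes were taken as all genes on the array whose annotated symbol is Hox, a cluster letter from a to d and a number, which gave 37 of 19938 measured genes. They comprised 10 genes of the HoxA cluster on chromosome 6, 9 of HoxB on chromosome 11, 9 of HoxC on chromosome 15 and 9 of HoxD on chromosome 2. Hoxb8 was left out because no transcript cluster (a set of probes read as 1 transcript) named it alone. RNA had been measured on Affymetrix mouse gene arrays, 1 per tumor, in 48 mammary tumors from 12 transplanted models with 4 tumors each. Cultured tumor cells of each model had been placed in the #4 mammary fat pad of immunocompetent mice of the matching strain, female and 6 to 8 weeks old, and tumors were collected at 0.5 to 1.0 cm. Lines from spontaneous tumors of Balb/c mice were TS/A-E1, 4T1, F311, EMT-6 and D2A1, and E0771 came from a spontaneous tumor of C57Bl/6. Lines from engineered FVB/N mice were Met-1, MVT-1, M6, HRM-1 and 6DT1, and R3T came from an engineered 129Sv mouse. The methods of the paper give 14 days of growth for 4T1 tumors, 11 for F311 and 28 for MVT-1, from an MMTV-Myc/VEGF tumor. The host age is from the same methods. The paper states that the arrays belonged to a different project, and the sample labels give no growth times. Each model is 1 cell line, so its 4 tumors repeat the transplantation and not the origin of the line, and each tumor also holds cells of the host.

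Hox genes encode transcription factors with a homeodomain, a DNA-binding domain that reads short AT-rich sites, usually together with Pbx and Meis partner proteins. In the embryo the genes are switched on in the order in which they lie along each cluster, and they set position along the body axis and in limbs. Genes with the same number in different clusters (a paralog group) descend from 1 ancestral gene. Polycomb proteins keep the clusters silent where they are not used, trithorax proteins keep them active, and retinoic acid is a classical inducer of the low-numbered genes. Several Hox genes are active in the mammary gland, where they take part in duct and lobule growth, and the adult gland keeps a regional set of them.

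Several of the widest differences in Hox signal lay in sets of neighboring genes. Whether neighbors varied together more than other genes was not tested. In 6DT1, HRM-1 and Met-1 tumors the Hox genes that differed from other models were spread over several clusters. HoxA genes from Hoxa2 to Hoxa10 were high in 4T1 and TS/A-E1 tumors, and 6 of them (without Hoxa4 and Hoxa9) also in D2A1 tumors. Hoxb2, Hoxb3 and Hoxb4 were high in M6, 6DT1 and MVT-1 tumors. Hoxd4, Hoxd8, Hoxd9, Hoxd10 and Hoxc10 were high in E0771 tumors, which had the lowest Hoxa2, Hoxa3 and Hoxa5. Of the 37 genes, 25 differed among the 12 models at an adjusted p under 0.05 (limma F-test, adjusted over all genes). This is 67.6% of the Hox genes, beside 70.4% of all genes, so Hox genes were not called more often than others. The median range of model means was 0.76 on the log2 scale for Hox genes and 0.68 for all genes. By cluster, 9 of 10 HoxA, 7 of 9 HoxB, 5 of 9 HoxC and 4 of 9 HoxD genes were called. By position, 4 of 7 genes of paralog groups 1 to 3, 13 of 14 of groups 4 to 8 and 8 of 16 of groups 9 to 13 were called. These shares were not compared by a test.

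**Figure D1:**
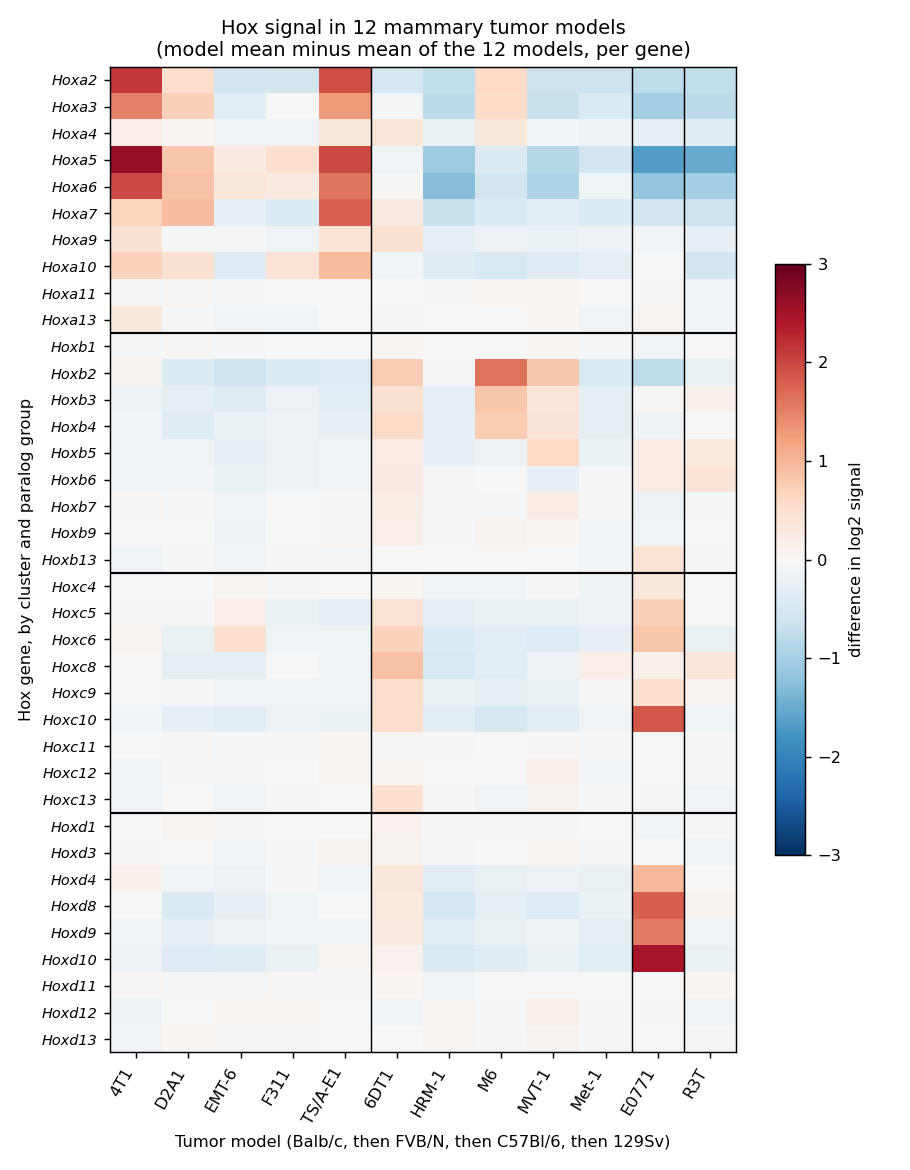
Mean log2 signal of each of the 37 Hox genes (rows, by cluster and paralog group) in each of the 12 models (columns, by strain), minus the mean of that gene over the 12 models. Red blocks lie over Hoxa2 to Hoxa7 in 4T1 and TS/A-E1, Hoxb2 to Hoxb4 in M6, 6DT1 and MVT-1, and Hoxd4 to Hoxd10 in E0771.

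Each model was then set against the mean of the other 11 models, gene by gene. Of 444 pairs of a Hox gene and a model, 143 passed, 67 higher and 76 lower. This is 32.2% of the pairs, beside 26.7% over all genes (13.6% higher and 13.1% lower). A model exceeded the others by more than 1 on the log2 scale in 17 pairs from 12 Hox genes, 3.83% of the pairs beside 1.74% over all genes. HRM-1 (0 higher, 14 lower), Met-1 (0 and 12) and EMT-6 (0 and 9) had no Hox gene above the other models. The corresponding shares of all genes were 15% higher and 10.2% lower in HRM-1, 14.3% and 16.6% in Met-1, and 11.5% and 12.9% in EMT-6.

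The HoxA cluster carried the widest differences. In 4T1 tumors 9 HoxA genes were higher than in the other models and 0 lower, and no HoxB, HoxC or HoxD gene passed (12% of all genes were higher in 4T1 and 13.1% lower). In TS/A-E1 tumors 8 genes were higher, all in HoxA, and Hoxb2, Hoxb3 and Hoxb4 were lower (10.8% of all genes higher, 7.57% lower). In D2A1 tumors 6 HoxA genes were higher and 5 genes of HoxB and HoxD lower (13.3% and 14.1% of all genes). No HoxA gene was higher and 6 or 7 were lower in E0771, R3T, HRM-1, MVT-1 and Met-1 tumors: 7 in R3T and HRM-1 and 6 in the other 3 models. Of all genes 16.7% were lower in E0771 and 9.64% in MVT-1, and the shares in HRM-1 and Met-1 are given above. In R3T 2 Hox genes were higher and 7 lower (13.5% and 10.4% of all genes).

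Hoxa5, a regulator of lung and mammary development, had the widest range of any Hox gene. Its log2 signal was 10.60, 10.44, 10.36 and 10.56 in the 4T1 tumors and 9.67, 9.71, 9.99 and 10.12 in the TS/A-E1 tumors. In E0771, the lowest model, it was 6.54, 6.04, 6.04 and 6.19. Every 4T1 tumor lay above every TS/A-E1 tumor, and both models lay above all others. Between the lowest model mean, 6.20, and the highest, 10.49, lay 4.29 (19.5-fold), with 91.3% of the variance between models (adjusted p = 4.6e-15, limma F-test). 4T1 exceeded the other models by 2.85 (SE 0.23, adjusted p = 1.6e-12) and TS/A-E1 by 2.17 (SE 0.23, adjusted p = 1.4e-09). D2A1 followed at 8.71 ± 0.31 (SD, n = 4), and its tumors overlapped those of F311, where Hoxa5 was 6.43, 9.08, 8.98 and 9.03. F311 replicate 1 stood apart from the rest of its model here, and it also had the highest B cell and a high adipocyte score, as described below.

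Hoxa6, the neighbor of Hoxa5, followed the same order at the top. It read 10.22, 10.12, 10.11 and 10.23 in 4T1, 9.75, 9.55, 9.89 and 10.04 in TS/A-E1 and 8.89, 9.11, 9.32 and 8.97 in D2A1. The 4T1 tumors lay above all TS/A-E1 tumors and these above all D2A1 tumors. HRM-1 was lowest at 6.93, which made the range 3.24 or 9.44-fold (adjusted p = 1.9e-15, limma F-test). 4T1 was higher than the others by 2.15 (SE 0.18, adjusted p = 4.5e-12). Across the 12 model means, Hoxa5 and Hoxa6 had a Pearson correlation of 0.98, a description over 12 points measured on the same arrays.

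Hoxa2, which patterns the second branchial arch and the hindbrain, showed the cleanest separation. Its signal was 9.21, 8.99, 9.04 and 9.08 in 4T1 tumors and 8.75, 8.64, 8.78 and 9.40 in TS/A-E1 tumors. It was 7.80, 7.71, 7.45 and 7.28 in M6 and 7.39, 7.49, 7.70 and 7.40 in D2A1 tumors. These formed 2 steps: 4T1 and TS/A-E1 overlapped each other above all other tumors, M6 and D2A1 overlapped each other below them, and no tumor of the other 8 models exceeded 6.52. Differences between models made up 98.5% of the variance (adjusted p = 1.0e-27, limma F-test). 4T1 exceeded the others by 2.31 (SE 0.07, adjusted p = 9.2e-25) and TS/A-E1 by 2.11 (SE 0.07, adjusted p = 2.0e-23).

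Hoxa3, a regulator of thymus and parathyroid formation, was highest in the same 4 models. It was 7.95 ± 0.15 in 4T1, 7.73 ± 0.40 in TS/A-E1, 7.17 ± 0.05 in D2A1 and 6.99 ± 0.06 in M6 tumors (SD, n = 4 each), against 5.43 in E0771. The tumors of the 4 upper models lay above all tumors of the other 8, and TS/A-E1 overlapped D2A1. Hoxa2 and Hoxa3 had a correlation of 0.95 over the 12 model means. The annotated Hoxa3 gene overlaps Hoxa4, Hoxa5 and Hoxa6 in RefSeq, and whether its probes read these genes as well was not tested.

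Hoxa7, a gene of trunk patterning, put TS/A-E1 first. Its signal was 9.30, 9.38, 9.31 and 9.56 in TS/A-E1, 8.32, 8.62, 8.80 and 8.41 in D2A1 and 8.23, 8.26, 8.35 and 8.28 in 4T1 tumors. All TS/A-E1 tumors lay above the rest, while D2A1 and 4T1 overlapped. TS/A-E1 exceeded the others by 1.94 (SE 0.11, adjusted p = 1.2e-16), D2A1 by 1.01 (SE 0.11, adjusted p = 4.0e-09) and 4T1 by 0.73 (SE 0.11, adjusted p = 2.8e-06).

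Hoxa10, which acts in uterine and hematopoietic development, was 8.22, 7.69, 8.32 and 8.14 in TS/A-E1 and 8.0, 8.04, 7.63 and 7.64 in 4T1 tumors. It was 7.49, 7.58, 7.72 and 7.53 in D2A1 and 6.69, 7.81, 7.92 and 7.85 in F311 tumors. These 4 models overlapped one another, and F311 replicate 1 was again the low tumor of its model. TS/A-E1 exceeded the others by 1.05 (SE 0.12, adjusted p = 1.4e-08), 4T1 by 0.76, D2A1 by 0.49 and F311 by 0.48. The F311 difference was 0.81 without the tumors rich in host tissue, which left 2 F311 tumors. It was the only Hox gene higher in F311, where 4 were lower (8.71% and 10.8% of all genes).

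The remaining HoxA genes varied less. Hoxa4 was highest in 6DT1 (8.10 ± 0.16), M6 (8.08 ± 0.10) and TS/A-E1 (8.07 ± 0.18; SD, n = 4 each) and ranged over 0.73. Hoxa9, a gene of blood stem cells and leukemia, was 6.78 ± 0.10 in 4T1 and 6.74 ± 0.17 in TS/A-E1 (SD, n = 4), above the others by 0.50 and 0.46. In 6DT1 it was called higher as well, by 0.49, with 6.13, 7.34, 7.28 and 6.34, the values over 7 in the 2 tumors of high adipocyte score described below, and without such tumors the difference was -0.02. Hoxa13, at the distal end of the cluster, was higher in 4T1 alone, at 6.03 ± 0.24 (SD, n = 4), by 0.38 (SE 0.07, adjusted p = 2.7e-05). This is close to the 95th percentile of silent receptor genes described below, 5.93. The other model means of Hoxa13 were at most 5.76. Hoxa11 was not called (adjusted p = 0.709), and its model means of 5.0 to 5.14 lay in the range of genes that are silent in these tissues.

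**Figure D2:**
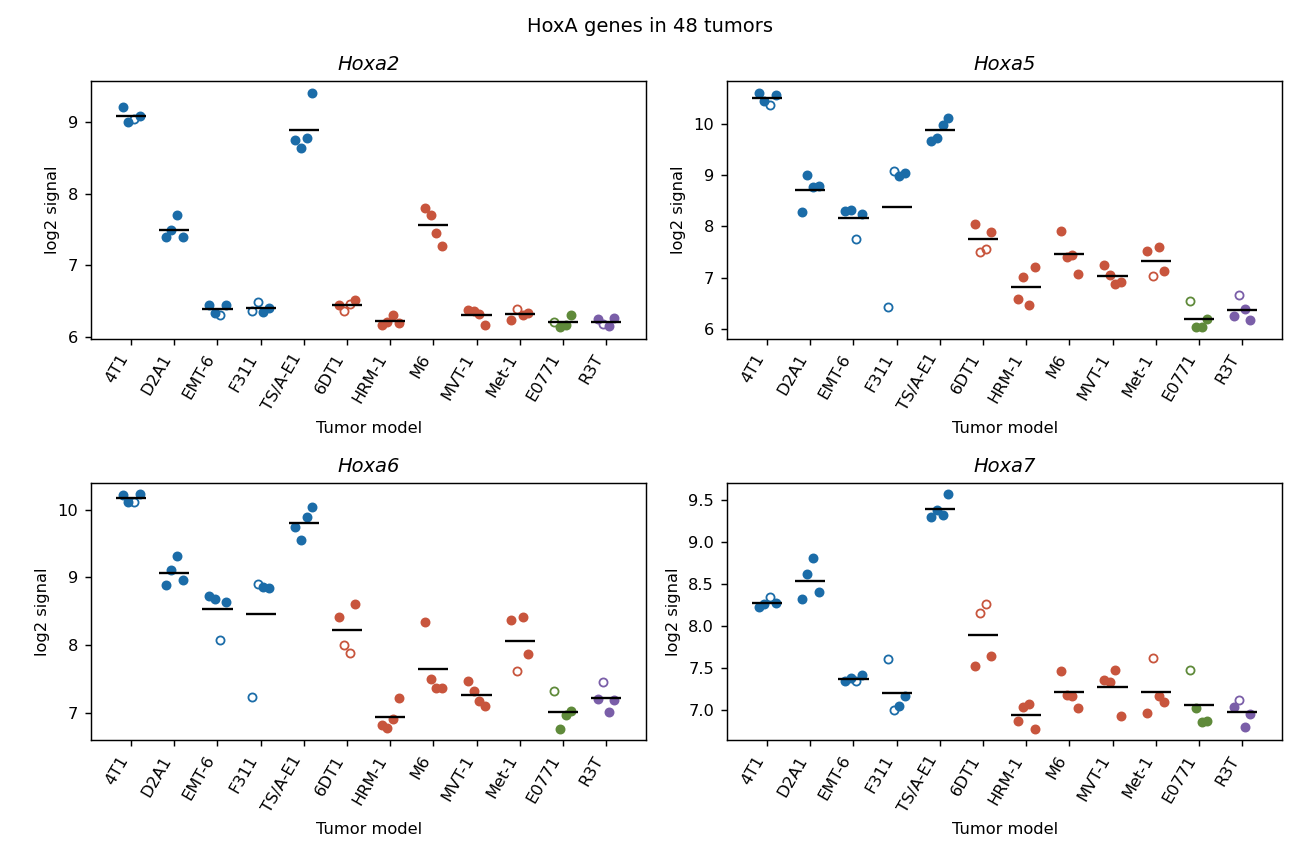
Log2 signal (vertical axes) of Hoxa2, Hoxa5, Hoxa6 and Hoxa7 in the 4 tumors of each model (horizontal axes), with lines at the model means. Open circles mark tumors with a high adipocyte or B cell score, and color gives the strain (blue Balb/c, red FVB/N, green C57Bl/6, purple 129Sv). 4T1 and TS/A-E1 tumors lie above all others in Hoxa2, Hoxa5 and Hoxa6, and F311 has 1 open circle far below its other tumors in Hoxa5.

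The promoters of 3 of these genes are shown for the HoxA genes that were high together in 4T1 and TS/A-E1 tumors. Each sequence runs 5′ to 3′ from 250 bases before to 50 bases after the start in RefSeq (build GRCm38.p6, minus strand), and capitals mark CpG dinucleotides, the sites of DNA methylation. Hoxa2 lies at chr6:52164782-52165081, Hoxa5 at chr6:52204538-52204837 and Hoxa6 at chr6:52208623-52208922.
Hoxa2: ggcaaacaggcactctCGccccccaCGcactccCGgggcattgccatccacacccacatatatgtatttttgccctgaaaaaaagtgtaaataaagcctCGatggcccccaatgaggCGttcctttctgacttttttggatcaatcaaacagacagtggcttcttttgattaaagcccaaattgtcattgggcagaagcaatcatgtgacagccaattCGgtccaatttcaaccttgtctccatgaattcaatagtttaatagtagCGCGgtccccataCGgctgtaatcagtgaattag
Hoxa5: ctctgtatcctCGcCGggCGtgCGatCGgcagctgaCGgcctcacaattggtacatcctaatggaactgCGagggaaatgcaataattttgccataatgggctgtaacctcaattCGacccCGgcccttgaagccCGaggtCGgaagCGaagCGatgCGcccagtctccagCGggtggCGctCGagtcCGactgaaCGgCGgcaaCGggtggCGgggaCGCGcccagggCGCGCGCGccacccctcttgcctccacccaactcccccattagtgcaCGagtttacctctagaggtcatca
Hoxa6: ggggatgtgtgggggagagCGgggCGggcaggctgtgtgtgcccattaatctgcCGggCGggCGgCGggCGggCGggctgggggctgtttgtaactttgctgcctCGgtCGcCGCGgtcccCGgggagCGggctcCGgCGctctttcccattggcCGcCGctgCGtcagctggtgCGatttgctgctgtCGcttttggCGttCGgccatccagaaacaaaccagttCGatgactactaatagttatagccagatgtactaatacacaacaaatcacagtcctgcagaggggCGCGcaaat
The windows hold 9 CpG in Hoxa2, 29 in Hoxa5 and 26 in Hoxa6, with a GC content of 45.7%, 61.7% and 62.0%. The promoter table used here matched 21 member genes, with 23 promoters of 300 bases. The median CpG count was 15 in these and 7 over all 32851 promoters of the table, and the median GC content was 58.0% and 52.7%. The Pbx-Hox motif TGATNNAT, searched on both strands with N for any base, was in 3 of the 23 Hox promoters (13%) and in 8.85% of all promoters. The Meis motif TGACAG was in 2 (8.7%) and in 19.2% of all promoters. Hoxa2 held 1 match to each, and the Hoxa5 and Hoxa6 windows held 0. A missing match says only that these letters are not in the window.

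In the HoxB cluster the proximal genes Hoxb2, Hoxb3 and Hoxb4 were called together. Hoxb2, a hindbrain patterning gene, was 10.15, 9.99, 9.61 and 9.77 in M6, 9.28, 8.84, 9.05 and 9.09 in MVT-1 and 9.24, 8.92, 8.91 and 9.04 in 6DT1 tumors. All M6 tumors lay above the rest, and MVT-1 and 6DT1 overlapped each other above all remaining tumors, of which 8.69 was the highest. M6 exceeded the others by 1.77 (SE 0.13, adjusted p = 6.3e-14), MVT-1 by 0.88 and 6DT1 by 0.84. The lowest model was E0771 at 7.49, a range of 2.39 or 5.25-fold.

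Hoxb4, known for expanding blood stem cells, was 7.90, 7.56, 7.20 and 7.25 in M6, 7.33, 7.39, 7.25 and 7.18 in 6DT1 and 7.09, 7.06, 7.08 and 7.17 in MVT-1 tumors. The tumors of these 3 models lay above all others, whose highest value was 6.89. M6 exceeded the other models by 0.84, 6DT1 by 0.64 and MVT-1 by 0.43 (SE 0.07 each). Hoxb3 took the same order at 8.72 ± 0.17, 8.36 ± 0.17 and 8.25 ± 0.17 (SD, n = 4 each), but its MVT-1 tumors overlapped those of other models. The correlation over 12 model means was 0.96 between Hoxb3 and Hoxb4 and 0.87 between Hoxb2 and Hoxb3, and it was 0.44 between Hoxb4 and Hoxb5. In RefSeq the annotated Hoxb3 overlaps Hoxb4. M6 had 6 Hox genes higher and 5 lower (18.3% and 16.8% of all genes), and MVT-1 had 5 and 8 (12.3% and 9.64%).

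The Hoxb4 promoter is shown for this group, at chr11:96318017-96318316 on the plus strand, with 14 CpG in capitals.
Hoxb4: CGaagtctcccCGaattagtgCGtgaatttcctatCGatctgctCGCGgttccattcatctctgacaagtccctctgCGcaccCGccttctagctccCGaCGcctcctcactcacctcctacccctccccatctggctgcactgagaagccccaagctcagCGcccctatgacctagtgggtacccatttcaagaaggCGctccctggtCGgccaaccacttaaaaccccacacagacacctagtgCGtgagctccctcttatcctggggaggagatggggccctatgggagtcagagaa
Beyond Hoxb4 the order changed. Hoxb5 was highest in MVT-1, at 6.68, 6.72, 7.11 and 6.61, above the others by 0.65 (SE 0.07, adjusted p = 3.0e-09). Hoxb6 was highest in R3T, at 6.62, 6.57, 6.62 and 6.71, by 0.45 (SE 0.06, adjusted p = 3.2e-07), and it was lowest in MVT-1. R3T tumors overlapped those of 6DT1 in Hoxb6. Hoxb7 was higher in MVT-1 and 6DT1 by 0.27 and 0.23, and Hoxb13, a gene of the prostate and tail bud, was higher in E0771 by 0.47. The E0771 tumors had Hoxb13 values from 5.67 to 6.28, close to the 95th percentile of silent receptor genes described below, 5.93. Hoxb1 (adjusted p = 0.858) and Hoxb9 (adjusted p = 0.054) were not called by the F-test, and Hoxb9 was higher in 6DT1 by 0.22 (SE 0.07, adjusted p = 0.014).

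In E0771 the high genes lay in HoxC and HoxD. Of 37 Hox genes 12 were higher and 8 lower (18.8% and 16.7% of all genes): 4 HoxD, 5 HoxC and 3 HoxB genes were higher, and 6 HoxA and 2 HoxB genes were lower. Hoxd10, a gene of limb and spinal cord patterning, was 8.48, 9.35, 9.44 and 9.11 in E0771 tumors, while no tumor of another model exceeded 6.97. Its difference from the others was 2.69 (SE 0.12, adjusted p = 1.1e-19), and its range of model means was 7.43-fold. Hoxd8 was 8.47, 8.71, 8.68 and 8.71 in E0771 and at most 7.85 elsewhere, a difference of 1.96 (SE 0.16, adjusted p = 1.5e-12). Hoxd9 was 7.96, 8.69, 8.31 and 8.14 in E0771 and at most 7.47 elsewhere, a difference of 1.69 (SE 0.10, adjusted p = 4.8e-16). For all 3 genes every E0771 tumor lay above every other tumor.

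Hoxd4 was 6.86, 7.05, 7.15 and 7.06 in E0771, a difference of 1.05 (SE 0.11, adjusted p = 2.3e-09), and 1 tumor of 6DT1 at 7.04 overlapped these. Hoxd3, which overlaps Hoxd4 in the annotation, and Hoxd11, which overlaps Hoxd10, were not called (adjusted p = 0.078 and 0.743). The correlation over the 12 model means was 0.96 for Hoxd4 and Hoxd8, 0.98 for Hoxd8 and Hoxd9, 0.99 for Hoxd9 and Hoxd10 and 0.03 for Hoxd10 and Hoxd11. Without E0771, the model far from the rest, the first 3 values were 0.85, 0.84 and 0.88 over 11 models. 

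E0771 tumors were also low in genes of luminal epithelium. The mean log2 signal of 16 luminal genes, relative to each gene's median over 48 tumors, was -1.92, -1.95 and -1.81 in E0771 replicates 2 to 4 and 0.08 in replicate 1. It ran from -1.63 to -1.07 in D2A1 and from -1.07 to -0.74 in MVT-1. In EMT-6 it ran from -1.43 to -0.36 and in 6DT1 from -1.08 to 1.21. Krt8, a luminal keratin, was detected in every tumor (10.63 to 13.40), and Epcam, an epithelial adhesion protein, was lowest in D2A1 at 6.31. The part of these markers in the Hox differences was not tested, and in bulk tumors fewer cells of a type and less RNA per cell cannot be told apart.

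The promoters of Hoxd8 and Hoxd10 are shown for the genes that were high together in E0771, at chr2:74704365-74704664 and chr2:74691641-74691940 on the plus strand, again with CpG in capitals.
Hoxd8: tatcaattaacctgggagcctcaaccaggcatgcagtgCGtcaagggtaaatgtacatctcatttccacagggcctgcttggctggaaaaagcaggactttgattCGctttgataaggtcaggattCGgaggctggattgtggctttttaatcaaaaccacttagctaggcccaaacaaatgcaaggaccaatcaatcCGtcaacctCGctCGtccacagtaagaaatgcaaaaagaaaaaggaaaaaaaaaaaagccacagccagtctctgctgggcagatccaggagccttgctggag
Hoxd10: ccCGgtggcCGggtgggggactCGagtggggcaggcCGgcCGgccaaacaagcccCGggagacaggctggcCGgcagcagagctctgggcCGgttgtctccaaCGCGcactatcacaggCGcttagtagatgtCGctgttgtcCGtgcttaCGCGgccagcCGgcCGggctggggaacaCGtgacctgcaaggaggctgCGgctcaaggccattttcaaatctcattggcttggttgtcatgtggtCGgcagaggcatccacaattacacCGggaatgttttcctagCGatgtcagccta
Hoxd8 has 6 CpG and a GC content of 46.7%, and Hoxd10 has 22 and 62.7%. Neither window matched the Pbx-Hox or the Meis motif.

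**Figure D3:**
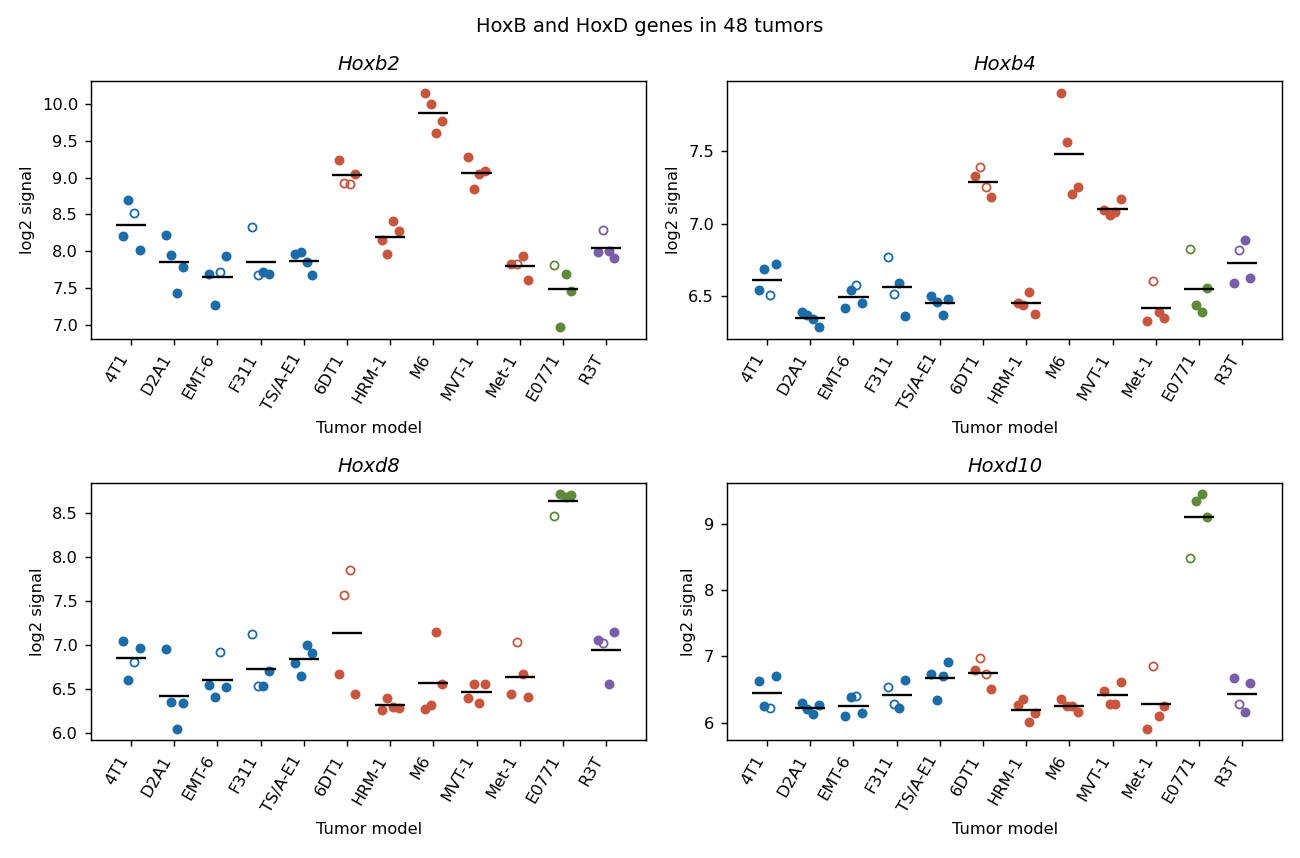
Log2 signal (vertical axes) of Hoxb2, Hoxb4, Hoxd8 and Hoxd10 in the 4 tumors of each model (horizontal axes), with lines at the model means. Open circles mark tumors with a high adipocyte or B cell score, and color gives the strain (blue Balb/c, red FVB/N, green C57Bl/6, purple 129Sv). M6, 6DT1 and MVT-1 are highest in the upper panels and E0771 in the lower panels, where no other tumor exceeds 7.85 for Hoxd8 or 6.97 for Hoxd10.

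Among HoxC genes, Hoxc10, a gene of lumbar identity, was 8.43, 8.62, 8.84 and 8.80 in E0771, above the others by 2.04 (SE 0.21, adjusted p = 8.0e-10). In 6DT1 it was 6.02, 8.17, 8.26 and 6.84. All E0771 tumors lay above the rest, and the 6DT1 tumors were split. Hoxc4, Hoxc5, Hoxc6 and Hoxc9 were also higher in E0771, by 0.37, 0.78, 0.90 and 0.53. E0771 did not stand apart in these genes. Hoxc9 was 8.19 and 8.18 in 6DT1 replicates 2 and 3, above every E0771 tumor (7.19 to 7.77). Hoxc6 and Hoxc5 were 9.05 and 7.22 in 6DT1 replicate 3, against at most 8.46 and 7.05 in E0771. Hoxc4 was near background even there, at 5.36 ± 0.05 (SD, n = 4). Hoxc11, Hoxc12 and Hoxc13 were not called by the F-test (adjusted p = 0.409, 0.438 and 0.583). Hoxc13 was called higher in 6DT1 by 0.54 (SE 0.18, adjusted p = 0.025), with 8.14 in replicate 3 and at most 5.89 in the other 6DT1 tumors.

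6DT1 had the most Hox genes above the other models, 18 higher and 1 lower (14.5% and 18.9% of all genes), and most of these calls rested on 2 of its tumors. Replicates 2 and 3 had adipocyte scores of 3.85 and 4.17, while replicates 1 and 4 had -1.03 and -1.16. The score is the mean log2 signal of 7 adipocyte genes relative to each gene's median over 48 tumors. Hoxc6 was 8.29 and 9.05 in the former and 6.58 and 7.48 in the latter. Without the 9 tumors of any model with an adipocyte or B cell score above 2.5, 6 of the 18 genes remained higher in 6DT1, with 2 tumors left. These were Hoxa4, Hoxb2, Hoxb3, Hoxb4, Hoxb7 and Hoxd1, of which Hoxd1 is among the genes near background described below. The 6DT1 difference was then -0.28 for Hoxc10, 0.00 for Hoxc5 and 0.00 for Hoxc9. In the same fit 4 genes were higher in EMT-6 (Hoxa5, Hoxa6, Hoxc5 and Hoxc6), and Hoxa5 and Hoxa6 were higher in F311, by 1.14 and 0.63. All 12 genes higher in E0771, 9 in 4T1 and 8 in TS/A-E1 kept their calls. Hoxb9 in 6DT1 kept a difference of 0.22 and lost its call (adjusted p = 0.088 in limma). How many of all genes kept, lost or gained a call in this fit was not counted. Models also lost different numbers of tumors, so these counts are not read as a trait of Hox genes.

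Hoxc8 was not called (adjusted p = 0.565), with model means that spanned 1.32 and a pooled SD of 0.77 within models. It was singled out after its values were seen. Its signal was 7.60, 10.17, 11.17 and 8.82 in the 6DT1 tumors, 10.38, 8.02, 7.99 and 7.90 in F311 and 10.09, 8.0, 8.55 and 8.28 in E0771. The high tumors, 6DT1 replicates 2 and 3, F311 replicate 1 and E0771 replicate 1, were those with the highest adipocyte scores, 3.85, 4.17, 3.76 and 3.36. In all 9 tumors with a high adipocyte or B cell score, Hoxc8 lay above every tumor of the same model without such a score. Some margins were small: 8.02 against 7.99 in F311 replicate 2, with an adipocyte score of -0.07, and 9.06 against 8.95 in 4T1 replicate 3. In 6DT1 and F311 only 2 tumors were left to compare with. Hoxa7, Hoxc4, Hoxc6 and Hoxc10 lay above in 7 of the 9, and no such count was made over all genes. Across models, 1 of 7 adipocyte genes and 0 of 5 B cell genes differed by the F-test, so these scores varied within models. Their part in the Hox values was not tested.

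**Figure D4:**
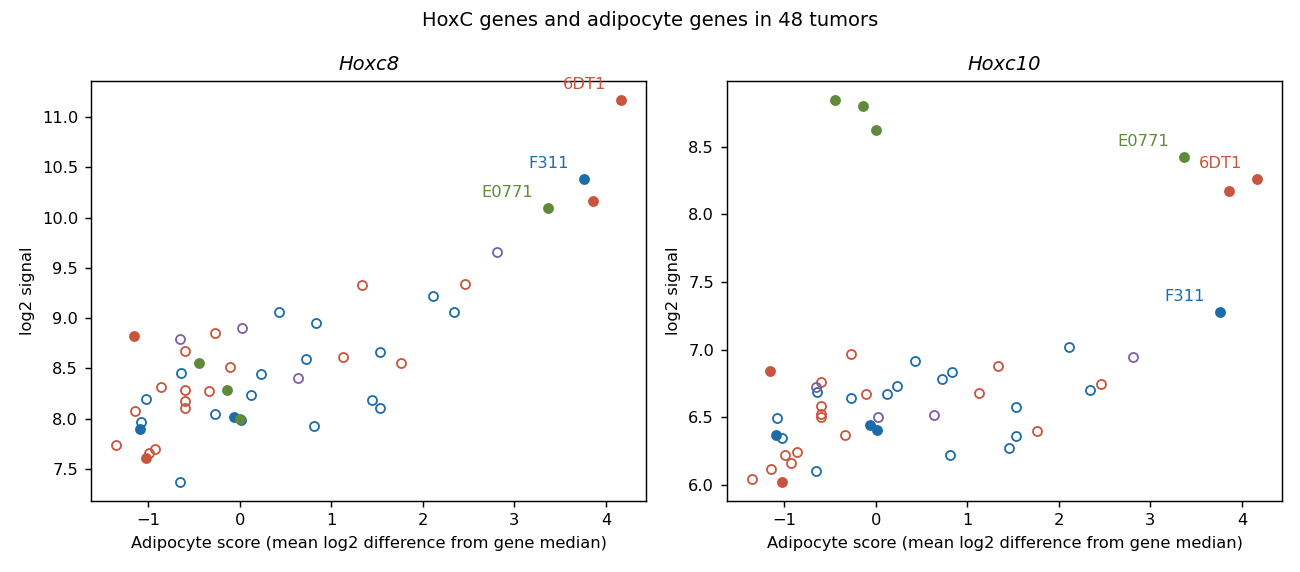
Log2 signal (vertical axes) of Hoxc8 and Hoxc10 against the adipocyte score (horizontal axes, mean log2 difference of 7 adipocyte genes from their medians), 1 circle per tumor, with 6DT1, F311 and E0771 filled and color for strain (blue Balb/c, red FVB/N, green C57Bl/6, purple 129Sv). The 4 tumors with scores from 3.36 to 4.17 have the highest Hoxc8, while Hoxc10 is high in all 4 E0771 tumors at scores from -0.45 to 3.36.

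Not all Hox genes were measurably above silent genes. The mean signal of 1194 olfactory and vomeronasal receptor genes, which these tissues should not use, had a median of 4.70 and a 95th percentile of 5.93. For 8 Hox genes the highest model mean lay under this percentile: Hoxa11, Hoxc4, Hoxc11, Hoxc12, Hoxd1, Hoxd3, Hoxd12 and Hoxd13. Of these, Hoxc4 was called by the F-test. Among the 29 others 24 were called. How many of all genes were called under and over this level was not counted, so these counts are not read as a trait of Hox genes. Hoxa11, Hoxc11, Hoxc12, Hoxd12 and Hoxd13 are distal genes, which act late and at the tail end of the body axis and in limbs. Hoxc4, Hoxd1 and Hoxd3 are not distal. Other distal genes, such as Hoxa13, Hoxb13 and Hoxd11, had a highest model mean above the percentile. A part of position in this was not tested.

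Strain was examined with the model as the unit, since tumors of 1 line do not repeat a strain. Between the 5 Balb/c and the 5 FVB/N models, 0 of 37 Hox genes passed in limma, beside 0.191% of all genes (38 of 19938). At an unadjusted p under 0.05 there were 6 Hox genes, beside 8.01% of all genes. Mean Hoxa5 over models was 9.12 in Balb/c and 7.28 in FVB/N, a difference of 1.85 (SE 0.45, adjusted p = 0.222 in limma). Every Balb/c model mean (8.16 to 10.49) lay above every FVB/N model mean (6.82 to 7.75). Hoxa6 did the same, with 8.46 to 10.17 against 6.93 to 8.23 (adjusted p = 0.235 in limma). How many of all genes divide the models in this way was not counted, so this is a description only. Hoxb2 was lower in Balb/c by 0.88 (SE 0.36, adjusted p = 0.591), with overlapping models. All Balb/c models here are of spontaneous and all FVB/N models of engineered origin, so strain and origin cannot be told apart.

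Genes that work with or on the Hox clusters also differed among the models. Their median range of model means was 1.33 on the log2 scale for TALE partners, 0.81 for Polycomb, 0.69 for trithorax and 1.65 for retinoid genes, beside 0.68 for all genes. Of the TALE homeodomain partners 9 of 9 measured were called by the F-test, of Polycomb genes 19 of 20, of trithorax genes 11 of 11 and of retinoid genes 12 of 14, beside 70.4% of all genes. Meis1, a Hox cofactor, was highest in 4T1 (8.75 ± 0.05; SD, n = 4), the model highest in Hoxa2 and Hoxa5, and lowest in D2A1 at 6.21 (adjusted p = 2.3e-16). Meis2 was highest in EMT-6 at 9.26. Ezh2, the Polycomb methyltransferase, and Rarb, a retinoic acid receptor, were both highest in M6, at 11.77 and 9.70. Rarb exceeded the other models by 3.26 (SE 0.14) there, the model with the highest Hoxb2, Hoxb3 and Hoxb4. Crabp2, which carries retinoic acid, was 11.65 in EMT-6 and 6.43 in 4T1. No relation between these genes and the Hox genes was tested.

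Of 20 genes next to the clusters 15 were called by the F-test (75%), of 9 ParaHox and linked homeobox genes 1 (Cdx2), and of 10 noncoding RNA genes of the clusters 4, beside 70.4% of all genes. Hoxaas2, a noncoding gene that overlaps Hoxa3 in the annotation, was 7.66 ± 0.25 in TS/A-E1 and 7.44 ± 0.05 in 4T1 (SD, n = 4), above the others by 1.10 (SE 0.07, adjusted p = 1.0e-14) and 0.86 (SE 0.07, adjusted p = 7.5e-12). Skap2, beyond the proximal end of HoxA, was also highest in TS/A-E1 and 4T1, by 0.69 and 0.51, and lowest in E0771. Hibadh, on the other side, was highest in E0771 and lowest in TS/A-E1. Evx1, next to Hoxa13, and Evx2, next to Hoxd13, were not called (adjusted p = 0.170 and 0.121). In E0771, Mtx2 beyond the proximal end of HoxD differed from the others by 0.11 and was not called, while Lnpk beyond the distal end was higher by 0.66. Hoxd3os1, a noncoding gene overlapping Hoxd3, was highest in E0771 at 6.44 (adjusted p = 6.1e-05).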

How the data were processed

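The 37 Hox genes and the gene lists were chosen with earlier results of these data known. The values deposited by the authors are log2 signal, already processed, of 35556 transcript clusters in each of 48 tumors. Neither their normalization nor the genome build of the probe annotation is given in the sources used here. Array medians lay between 6.76 and 6.99, no values were changed, and no arrays were duplicates. In the probe annotation supplied with the series, 21789 clusters name 1 gene, 1621 several and 12146 none. Clusters with 1 gene were kept, and the brightest cluster represented each of 999 genes with several, which left 19938 genes. Signal saturates and includes background, and levels are compared only within a gene. The number of arrays limits the precision.

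Models came from the sample labels, which call the replicates biological and give no batch. Models were compared in limma 3.58.1 (R 4.3.3) with an F-test and with each model against the mean of the other 11, adjusted (Benjamini-Hochberg) over all genes and the 12 contrasts. The strain comparison, Balb/c minus FVB/N, took 1 mean per model. A call is an adjusted p under 0.05. Named in full were the 12 called Hox genes with the widest range of model means. From other lists up to 4 genes with the smallest F-test p were named, and others by level. In simulated data with 200 of 19938 genes changed by 1 on the log2 scale, 88% were recovered by the F-test, 91% by 4T1 against the others and 68.5% by the strain comparison. At a change of 0.5 these were 52%, 66.5% and 41%. Alternatives were quantile normalization, centred arrays, averaged clusters, a dim-gene filter, intensity trend, robust prior, replicate number as a term, tissue scores as covariates, the methods' one-way and t-tests, and leaving out tumors or models. Scores and figures were made in Python 3.11.15 (pandas 2.3.3, numpy 2.4.6, matplotlib 3.10.9). Promoters are from RefSeq (GRCm38.p6).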

Additional observations from a re-analysis of the deposited data

Results flagged for a closer look

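In 13 Hox genes, the 12 named in full and Hoxc8, single tumors lay far from the other 3 tumors of their model. This occurred 16 times in 156 groups of 4. Chance gives about 1 in 20 for 1 group taken alone. These groups share the same tumors and hold neighboring genes that vary together, and Hoxc8 was added after its values were seen. The count is therefore not a test of an excess. F311 replicate 1 was low in Hoxa5 (6.43, nearest tumor 8.98), Hoxa6 (7.23, nearest 8.85), Hoxa3 (5.84, nearest 6.57) and Hoxa10 (6.69, nearest 7.81). The same tumor was high in Hoxb2 (8.33, nearest 7.71), Hoxc10 (7.28, nearest 6.44), Hoxd4 (6.35, nearest 5.93) and Hoxc8 (10.38, nearest 8.02). It had an adipocyte score of 3.76 and a B cell score of 5.22. EMT-6 replicate 3, with a B cell score of 4.00, was low in Hoxa5 (7.75, nearest 8.25) and Hoxa6 (8.07, nearest 8.64) and high in Hoxc8 (9.06, nearest 8.11). Met-1 replicate 2, with a B cell score of 5.22, was high in Hoxd9 (6.89, nearest 6.35) and Hoxd4 (6.19, nearest 5.76). E0771 replicate 1, with an adipocyte score of 3.36, was low in Hoxd8 (8.47, nearest 8.68). M6 replicate 1 was high in Hoxa6 (8.34, nearest 7.50) and low in Hoxa3 (6.9, nearest 7.02), and it was not among the tumors rich in host tissue. The part of host tissue in these values was not tested.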

How the results depend on the processing

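The count of Hox genes that differed among models, 25, was 21 to 27 under all alternatives (24 to 27 leaving out 1 tumor), and that of all genes, 14031, was 12326 to 14632 (13756 to 14270). The count of gene and model pairs, 143, was 136 to 154 under all alternatives and also leaving out 1 tumor. Each of the 12 named genes kept the direction and the call of its difference in its highest model in all settings run. These were 695 values, such as 2.79 to 2.89 for Hoxa5 in 4T1 and 2.58 to 2.92 for Hoxd10 in E0771. The 12 genes had been picked as the called genes of widest range, and most settings only left out 1 tumor. Their steadiness therefore says nothing about Hox genes with smaller differences. With the dimmest 30% of all genes left out, 13 Hox genes among them, 21 of the Hox genes left were called. No share of all genes in that setting stands beside this count, so it is not read as a trait of Hox genes. Tissue scores as covariates gave 25 Hox genes and 146 pairs.

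Between Balb/c and FVB/N the count of Hox genes moved from 0 to 9 with all tumors and the model as a random block, to 7 with the replicate block added, and to 0 to 1 leaving out 1 model. The 9 were Hoxa2, Hoxa3, Hoxa5, Hoxa6, Hoxa7, Hoxa10, Hoxb2, Hoxb3 and Hoxb4, and the cause was not tested. The random-block fits take tumors as units, with 1 correlation within models shared by all genes. How many of all genes passed in these fits was not counted, so the 9 are not read as a trait of Hox genes. Without EMT-6, Hoxa10 passed (difference 0.96, adjusted p = 0.047). With the replicate number as a block (replicate block), 25 Hox genes, 14009 genes and 142 pairs were called. Tumors of the same number had a median correlation of 0.03 (lowest -0.65), beside 0.003 for tumors of other numbers. At the median they did not deviate together, but a median cannot exclude pairing of some of them.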

Other observations

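The transcript cluster that names both Hoxb8 and Hoxb7 had model means of 6.20 in Met-1 to 6.47 in 6DT1 tumors, with tumors from 6.10 to 6.73, and was left out of the counts because its signal cannot be given to either gene.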
